A study of Caenorhabditis elegans with 14 samples.

Results

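The microRNAs described here are the well-counted ones outside the let-7 and mir-58 families, in whole young adult Caenorhabditis elegans. They were chosen by their counts, as the listed microRNA transcripts whose mean over both small RNA libraries was at least 50, leaving out the let-7 family (let-7, mir-48, mir-84 and mir-241) and the mir-58 family (mir-58.1, mir-80, mir-81 and mir-82) by their identifiers. This gave 41 transcripts from 41 genes, out of 50 microRNA transcripts with such a mean, 203 listed microRNA transcripts and 16641 listed transcripts in all. The choice rests on the mean count, so the abundance of the members is a description. The rule does not use the difference between the libraries, but it was set with earlier results of these data known.

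The series holds 14 samples, of which the 2 small RNA libraries were used. One is from N2 young adults fed bacteria that express snpc-4 double-stranded RNA (snpc-4 RNAi), and the other from N2 young adults fed bacteria with the L4440 vector (control RNAi). N2 is the wild-type laboratory strain. The labels give L1 in one place and L2 in another as the larval stage at which feeding began, and both groups were collected as whole young adults, germline included. SNPC-4, formerly GEI-11, belongs to the SNAP complex, a factor needed for transcription of small nuclear RNA genes, and the comparison asks how small RNAs differ when it is depleted. Each group has 1 library, so no difference has a replicate check, no test was possible and no p-value is given. How far snpc-4 itself was depleted was not analysed here.

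MicroRNAs are short RNAs cut from hairpin transcripts. Loaded into an Argonaute protein, they pair with messenger RNAs through a short stretch near their 5′ end, the seed, and lower the output of those messages. MicroRNAs with a shared seed form a family and can act on the same targets. In the worm they are best known from the timing of larval development, but adult tissues hold many others, with known roles in muscle, lifespan, stress survival and cell fate.

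Every transcript has a whole-number count of reads and a deposited RPM value, which is that count scaled to a library total. The listed microRNAs summed to 954777 counts in the snpc-4 library and 812616 in the control library, which is 45738 RPM in the snpc-4 library and 39808 RPM in the control library. All microRNAs together were thus 1.15 times higher in the snpc-4 library on the RPM scale. Listed transcripts hold just 5.15% of the RPM total in the snpc-4 library and 4.69% in the control library. Of the listed counts, microRNAs made up 88.8% in the snpc-4 library and 84.9% in the control library, a smaller difference. To see which microRNAs differed from the microRNAs as a whole, each is given below as its share of the microRNA total. Its ratio is the share in the snpc-4 library over the share in the control library. Brackets after a ratio hold its exact conditional binomial 95% interval, which holds counting error alone. Reads copied by PCR without molecular tags are not separate molecules, so such intervals can be too tight. Counts and RPM are not scaled to length, and mature microRNAs are of nearly equal length. The labels give inserts of 22 to 30 nucleotides, and how this size window affected the level or ratio of single microRNAs was not tested. In whole animals, fewer cells of a type and less RNA per cell cannot be told apart.

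The 41 microRNAs held 33.1% of the microRNA total in the snpc-4 library and 30.9% in the control library, a ratio of 1.07 (1.07 to 1.08). The let-7 family held 46.7% in the snpc-4 library and 46.3% in the control library, and the mir-58 family 20.2% in the snpc-4 library and 22.8% in the control library. The gain of the 41 in share lay in mir-1, the microRNA of muscle, which tunes signalling at the neuromuscular junction. mir-1 had 230145 counts (11025 RPM) in the snpc-4 library and 172025 counts (8427 RPM) in the control library. Its share of the microRNA total was 24.1% in the snpc-4 library and 21.2% in the control library, a ratio of 1.14 (1.13 to 1.15), and against the sum of all other microRNAs its ratio was 1.18 (1.18 to 1.19). It was the most abundant listed microRNA in the snpc-4 library and the second in the control library, after mir-84. Without mir-1, the other 40 held 8.97% of the microRNA total in the snpc-4 library and 9.69% in the control library. This was a ratio of 0.925 (0.916 to 0.934), the opposite direction, relative to a total that still includes mir-1. By RPM the other 40 were higher in the snpc-4 library, at 4101 against 3858 in the control library, a ratio of 1.06.

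The adult profile of these microRNAs was steep. Counts ranged between 60 and 230145 in the snpc-4 library, with a median of 1012, and between 65 and 172025 in the control library, with a median of 752. mir-1 made up 72.9% of the counts of the 41 in the snpc-4 library and 68.6% in the control library, and the 10 most abundant made up 92.4% in the snpc-4 library and 91.2% in the control library. The order changed little: Spearman's rho of the counts in the libraries was 0.985 over the 41 microRNAs, a description with no test. Among all listed microRNAs, 6 of the 41 kept their rank, 12 moved by at least 3 ranks and none by more than 5. Each chromosome's microRNAs are listed in 2 runs of ascending position, and 38 of the 41 stand in second runs. The second runs held 94.4% of all microRNA counts in the snpc-4 library and 93.0% in the control library. In the first runs, 61 of 110 microRNA transcripts were at 0 in both libraries, so the profile may lack some of those. The microRNA total may lack them too, so each share is a share of the listed microRNA counts.

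**Figure D1:**
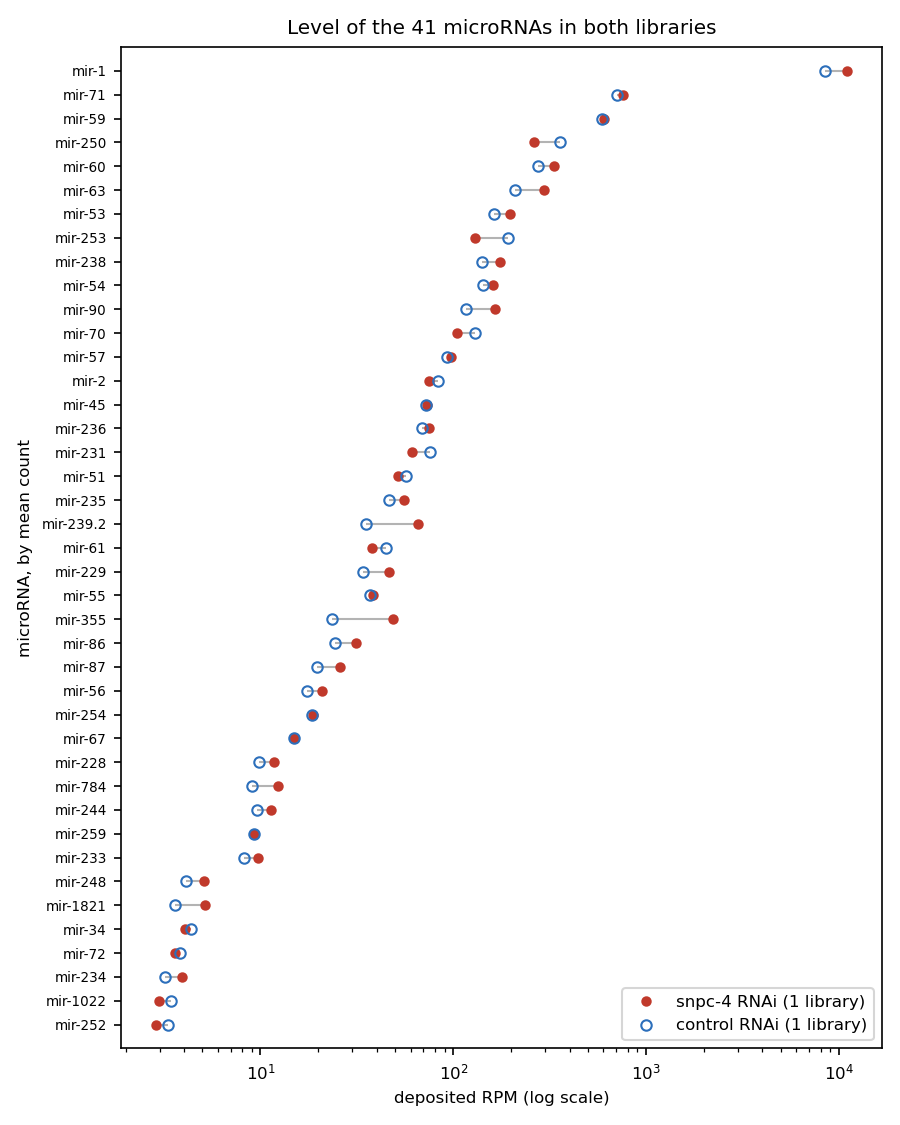
Level of each of the 41 microRNAs in deposited RPM on a log axis, with 1 filled point for the snpc-4 RNAi library and 1 open point for the control RNAi library, ordered by mean count. mir-1, at 11025 RPM in the snpc-4 library and 8427 RPM in the control library, stands more than a factor of 10 above mir-71, at 756 RPM in the snpc-4 library and 705 RPM in the control library, and the points of most microRNAs lie close together.

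After mir-1 came mir-71 and mir-59. mir-71, which promotes long life and survival of starvation in worms, had 15789 counts (756 RPM) in the snpc-4 library and 14394 counts (705 RPM) in the control library. Its share of the microRNA total was 1.65% in the snpc-4 library and 1.77% in the control library, a ratio of 0.934 (0.913 to 0.955). mir-59 had 12658 counts (606 RPM) in the snpc-4 library and 12092 counts (592 RPM) in the control library, a ratio of 0.891 (0.869 to 0.914). Both had more reads in the snpc-4 library but a smaller share of the microRNA total, because the total was larger there. They kept ranks 8 and 9 among all microRNAs in both libraries.

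The next places were held by mir-250 and mir-60, which changed order. mir-250, of the mir-2 family, had 5470 counts (262 RPM) in the snpc-4 library and 7305 counts (358 RPM) in the control library. mir-60, a microRNA of the intestine, had 6964 counts (334 RPM) in the snpc-4 library and 5634 counts (276 RPM) in the control library. mir-60 thus ranked above mir-250 in the snpc-4 library and below it in the control library. The ratio was 1.05 (1.02 to 1.09) for mir-60 and 0.637 (0.615 to 0.660) for mir-250. mir-250 and mir-253 were the only ones of the 10 most abundant members with fewer reads in the snpc-4 library.

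The remaining members of the top 10 had between 2702 and 6192 counts in the snpc-4 library and between 2865 and 4243 in the control library. mir-63, of the mir-64 family, had 6192 counts (297 RPM) in the snpc-4 library and 4243 (208 RPM) in the control library. mir-53, of the mir-51 family, had 4108 counts (197 RPM) in the snpc-4 library and 3312 (162 RPM) in the control library, a ratio of 1.06 (1.01 to 1.11). mir-238, a microRNA that promotes long life, had 3621 counts (173 RPM) in the snpc-4 library and 2865 (140 RPM) in the control library, a ratio of 1.08 (1.02 to 1.13). For these 3 the whole interval lay above 1, while that of mir-54, also of the mir-51 family, reached across 1. mir-54 had 3357 counts (161 RPM) in the snpc-4 library and 2919 (143 RPM) in the control library, a ratio of 0.979 (0.931 to 1.03).

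Relative to the microRNA total, most of the 41 differed little. Their median log2 ratio was -0.031, with quartiles of -0.29 and 0.11 and a range of -0.77 to 0.85, while the median over the 397 listed transcripts of any class that reach a mean of 50 counts was -0.36 and that over the other 9 microRNAs -0.018. 32 of the 41 lay within 1.3-fold of the microRNA total. The ratio was above 1 for 20 and below 1 for 21. Scaled by deposited RPM, which raises every log2 ratio by 0.20, 29 were higher in the snpc-4 library and 12 lower, so a direction near 1 depends on the scaling.

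Past a limit of 1.5-fold, 2 of the 41 (4.88%) were higher and 2 (4.88%) lower in the snpc-4 library. Of those 397 transcripts, 3.53% were that much higher and 36.8% that much lower, relative to the same total. The share of higher members is thus near the background, and the share of lower members is below it. Among the 347 transcripts that are not microRNAs, which include the piRNAs, 41.5% were at least 1.5-fold lower, and among the 9 other microRNAs 11.1% were that much higher (mir-241 alone) and 0% that much lower. The counting interval of the ratio lay above 1 for 9 of the 41 (22%, against 9.32% of the 397), below 1 for 11 (26.8%, against 53.7%) and included 1 for 21. An interval narrows with the count, from within a factor of 1.01 for mir-1 to a factor of 1.44 for mir-252, so these counts follow depth as well as difference.

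**Figure D2:**
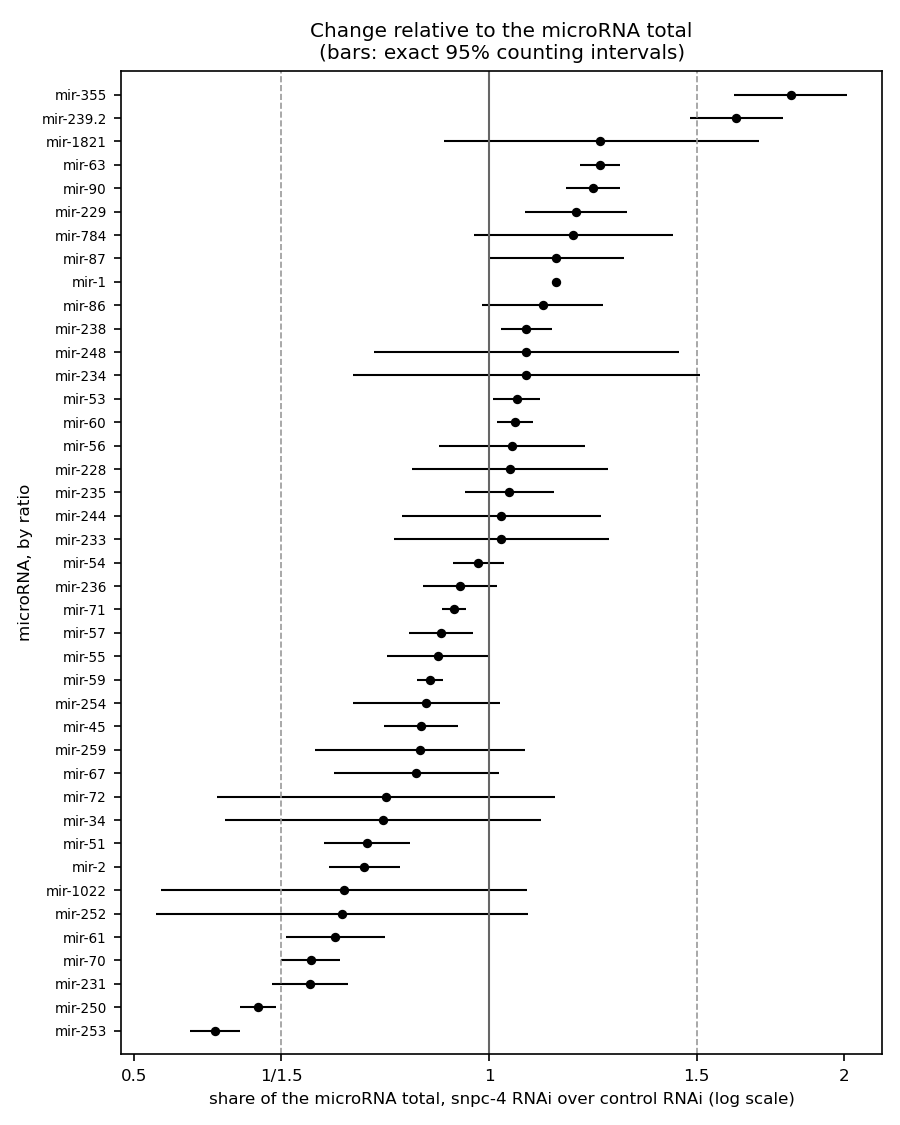
Ratio of each microRNA's share of the microRNA total, snpc-4 RNAi over control RNAi, on a log axis, with exact 95% counting intervals as bars and dashed lines at 1.5-fold. mir-355 (1.80) and mir-239.2 (1.62) lie beyond the upper line, mir-250 (0.637) and mir-253 (0.585) beyond the lower one, and the other 37 between the lines.

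The highest ratios belonged to mir-355 and mir-239.2. mir-355 had 1012 counts (48.5 RPM) in the snpc-4 library and 478 counts (23.4 RPM) in the control library. Its share of the microRNA total was 0.106% in the snpc-4 library and 0.0588% in the control library, a ratio of 1.80 (1.61 to 2.01), and on the RPM scale its ratio was 2.07. mir-239.2, one of a pair of mir-239 genes linked to lifespan and stress survival, had 1377 counts (66.0 RPM) in the snpc-4 library and 723 counts (35.4 RPM) in the control library, a ratio of 1.62 (1.48 to 1.78). Both are in the middle of the abundance range, and both moved up by 4 ranks among all microRNAs.

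The next 4 ratios lay between 1.18 and 1.24. mir-1821 had 108 counts in the snpc-4 library and 74 in the control library, a ratio of 1.24 (0.916 to 1.69), which is not separable from 1 at this depth. mir-63 had a ratio of 1.24 (1.19 to 1.29). mir-90, of the mir-50 family, had 3411 counts (163 RPM) in the snpc-4 library and 2370 (116 RPM) in the control library, a ratio of 1.22 (1.16 to 1.29). For mir-229, of the mir-64 family, 963 counts (46.1 RPM) in the snpc-4 library and 692 (33.9 RPM) in the control library gave 1.18 (1.07 to 1.31). With its deeper counts, mir-63 gave a firmer value than mir-1821 at the same size.

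The lowest ratios belonged to mir-253 and mir-250. mir-253 had 2702 counts (129 RPM) in the snpc-4 library and 3928 counts (192 RPM) in the control library. Its share of the microRNA total was 0.283% in the snpc-4 library and 0.483% in the control library, a ratio of 0.585 (0.557 to 0.615), and it ranked 17th among all microRNAs in the snpc-4 library and 13th in the control library. On the RPM scale the ratio was 0.673 for mir-253 and 0.732 for mir-250, so both had a lower RPM as well as a smaller share, but neither passed 1.5-fold on that scale.

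The next 4 ratios lay between 0.705 and 0.751. mir-231 had 1273 counts (61.0 RPM) in the snpc-4 library and 1537 (75.3 RPM) in the control library, a ratio of 0.705 (0.654 to 0.760). mir-70 had 2184 counts (105 RPM) in the snpc-4 library and 2634 (129 RPM) in the control library, a ratio of 0.706 (0.666 to 0.747). mir-61, which acts in the fate choice of vulval precursor cells, had 791 counts (37.9 RPM) in the snpc-4 library and 909 (44.5 RPM) in the control library, a ratio of 0.741 (0.672 to 0.816). All 3 also had fewer RPM in the snpc-4 library. mir-252, at 60 counts in the snpc-4 library and 68 in the control library, had a ratio of 0.751 (0.522 to 1.08), and no difference was detectable for it at this depth.

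By family, the members of a group stood on the same side of 1 in 5 of 6 families with at least 2 members here, and apart in the mir-51 family. Each of these 5 families had just 2 members here, so little can be read from the shared side. In the mir-87 family the intervals of both members included 1. By RPM the mir-44 family was split as well. These families were taken from general knowledge of worm microRNAs. Within a pair, the ratio of the 2 members' ratios does not depend on any scaling. Its exact interval excluded 1 for 9 of 15 pairs within families, so in these pairs the relatives differed by more than counting error. Most of the 15 pairs came from the mir-51 family and share members. Pairs of unrelated microRNAs were not counted for comparison, so the count says nothing particular to families.

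The mir-64 family was higher in the snpc-4 library. Its 2 members here, mir-63 and mir-229, summed to 7155 counts in the snpc-4 library and 4935 in the control library, a ratio of 1.23 (1.19 to 1.28). Their ratios did not differ beyond counting error, with 1.05 (0.942 to 1.17) for mir-63 over mir-229. The other 3 listed relatives had few reads: mir-64 had 12 counts in the snpc-4 library and 5 in the control library, mir-65 had 16 in the snpc-4 library and 9 in the control library, and mir-66 had 13 in the snpc-4 library and 18 in the control library.

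In the mir-238 family, mir-238 and mir-239.2 summed to 4998 counts in the snpc-4 library and 3588 in the control library, a ratio of 1.19 (1.14 to 1.24). mir-239.2 stood 1.51 times (1.36 to 1.67) above mir-238. Its neighbour and relative mir-239.1, under the minimum, had 35 counts in the snpc-4 library and 36 in the control library, so mir-239.2 stood 1.96 times (1.18 to 3.24) above it. The higher value was thus seen for mir-239.2 and not for the other listed mir-239 transcript.

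The mir-87 family was not separable from the microRNA total. mir-87 had 537 counts in the snpc-4 library and 401 in the control library, and mir-233 had 202 in the snpc-4 library and 168 in the control library. Together their ratio was 1.11 (0.990 to 1.24), an interval that includes 1.

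The mir-51 family, related to the deeply conserved miR-100 and needed for embryonic development, was near the microRNA total, at 9780 counts in the snpc-4 library and 8504 in the control library for 5 members, a ratio of 0.979 (0.951 to 1.01). By RPM this sum was higher in the snpc-4 library, with a ratio of 1.12. mir-53 (ratio 1.06) and mir-54 (0.979) lay near 1, as did mir-56, with 437 counts in the snpc-4 library and 356 in the control library and a ratio of 1.04 (0.906 to 1.21). mir-55, with 800 counts in the snpc-4 library and 752 in the control library, had 0.905 (0.819 to 1.00). mir-51 stood apart, with 1078 counts in the snpc-4 library and 1165 in the control library, a ratio of 0.788 (0.724 to 0.856). mir-53 was 1.34 times (1.22 to 1.48) above mir-51. The sixth gene, mir-52, whose mature sequence is near-identical to that of mir-53, had 19 counts in the snpc-4 library and 7 in the control library, and the files do not say how reads shared by the pair were counted.

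The mir-44 family was lower relative to the microRNA total, with 2308 counts in the snpc-4 library and 2383 in the control library for mir-45 and mir-61, a ratio of 0.824 (0.778 to 0.873). mir-45 had 1517 counts in the snpc-4 library and 1474 in the control library, a ratio of 0.876 (0.815 to 0.942), and lay at 1.01 on the RPM scale. mir-44, which has the same mature sequence as mir-45, and mir-247 were at 0 in both libraries, so the value of mir-45 may stand for mir-44 as well. Both genes at 0 also stand in first runs of listing, where many microRNAs were at 0, and the reason for their 0 counts was not tested.

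The mir-2 family, conserved with flies, was the lowest of the 6. mir-250 and mir-2 summed to 7026 counts in the snpc-4 library and 8995 in the control library, a ratio of 0.665 (0.644 to 0.686). mir-2 had 1556 counts in the snpc-4 library and 1690 in the control library, a ratio of 0.784 (0.731 to 0.840), and stood 1.23 times (1.14 to 1.33) above mir-250. Both had fewer RPM in the snpc-4 library. The relatives mir-43, with 0 counts in the snpc-4 library and 3 in the control library, and mir-797, with 0 in both, were at or under the floor of 3 counts.

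**Figure D3:**
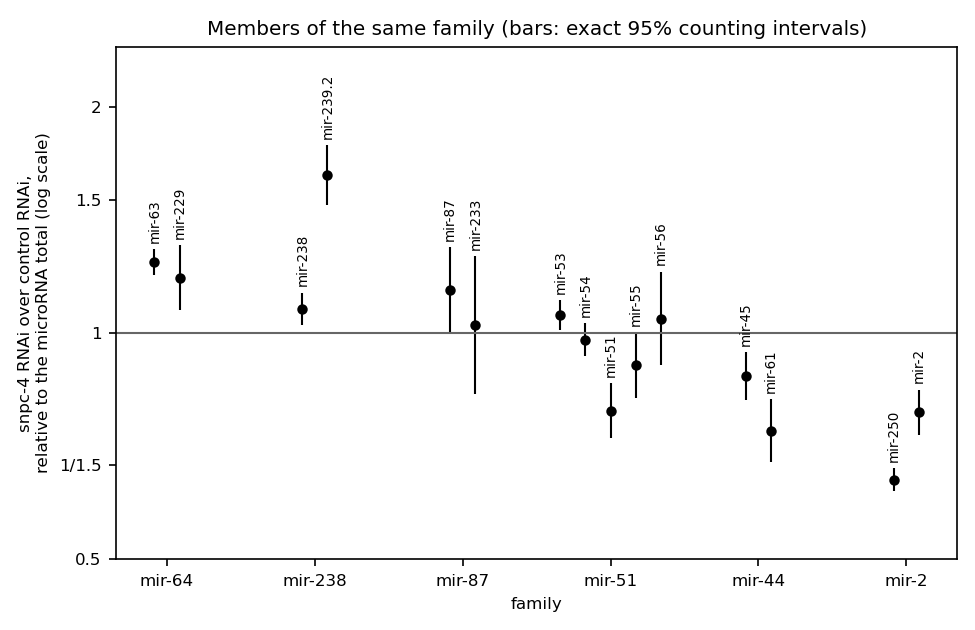
Ratio of the share of the microRNA total, snpc-4 RNAi over control RNAi, on a log axis, for the members of 6 families, each family's members ordered by mean count and with exact 95% counting intervals. mir-63 and mir-229 lie above 1 and mir-250 and mir-2 below it, while the 5 members of the mir-51 family span 0.788 to 1.06.

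Of families with 1 member here, mir-90 stands for the mir-50 family, whose other genes mir-50 and mir-62 had at most 2 counts in either library. mir-86 had 651 counts in the snpc-4 library and 499 in the control library, a ratio of 1.11 (0.987 to 1.25), and its relative mir-785 had 0 in both. mir-72, related to miR-31, had 75 counts in the snpc-4 library and 78 in the control library, a ratio of 0.818 (0.588 to 1.14), and its relatives mir-73 and mir-74 had at most 3 counts in either library. No member came from the mir-46, mir-49, mir-75 and mir-240 families, whose 8 genes had at most 4 counts in either library. These genes, and the relatives under the minimum named above for the other families, all stand in the first runs of listing. There, 61 of 110 microRNA transcripts were at 0 in both libraries, so their low counts are not read as low levels in the adult.

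MicroRNA genes that lie close together are often cut from a common transcript. In the gene table, 8 groups of microRNA genes with neighbouring starts at most 5 kb apart hold at least 1 of the 41, without regard to strand, which the table does not give. In the pair mir-250 and mir-61, of different families, both were lower relative to the microRNA total, and mir-61 stood 1.16 times (1.05 to 1.29) above mir-250. The trio mir-54, mir-55 and mir-56 lay between 0.905 and 1.04, with no pair of the 3 separable by counting error. The pair mir-53 and mir-51 differed by 1.34 times, as given above. mir-238 stood 1.16 times (1.10 to 1.21) above the main product of its neighbour mir-80. Over all neighbour pairs with means of at least 10 counts, the interval excluded 1 for 5 of 13. Some of these are also pairs within a family, and here too pairs of unrelated microRNAs were not counted for comparison.

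For microRNAs linked to ageing and stress, values went both ways. The 5 of them among the 41 summed to 21118 counts in the snpc-4 library and 18272 in the control library, a ratio of 0.984 (0.964 to 1.00), mostly mir-71. mir-239.2 (1.62) and mir-238 (1.08) were higher, mir-71 (0.934, but 1.07 by RPM) was lower, and the intervals of the other 2 included 1. mir-34, the relative of a microRNA that acts in the DNA damage response of mammals, had 85 counts in the snpc-4 library and 89 in the control library, a ratio of 0.813 (0.597 to 1.11). mir-228, found in glia, had 246 counts in the snpc-4 library and 201 in the control library, a ratio of 1.04 (0.861 to 1.26). mir-246, from the same list, had 11 counts in the snpc-4 library and 6 in the control library and is not among the 41.

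Of the microRNAs that mark a tissue, mir-1 of muscle (1.14) and mir-60 of intestine (1.05) were higher relative to the microRNA total. The neuronal mir-124 and lsy-6 were at 0 in both libraries. Both stand in the first runs of listing, where 61 of 110 microRNA transcripts were at 0 in both, so this is not read as absence. The mir-35 family, which marks oocytes and embryos, summed over its 8 genes to 16 counts in the snpc-4 library and 54 in the control library. The ratio was 0.252 (0.135 to 0.447), with mir-41 at 0 in both. These genes also stand in first runs and had at most 15 counts each. By single gene, the interval excluded 1 for mir-35 and mir-38. mir-35 had 5 counts in the snpc-4 library and 15 in the control library, and mir-38 had 1 and 15. For mir-36, mir-37, mir-39, mir-40 and mir-42 the interval included 1. The piRNAs of the germline had 1537 RPM in the snpc-4 library and 3176 RPM in the control library. Their level is not read here as a measure of germline content. Among stage-dependent microRNAs, mir-241 of the let-7 family had 1745 counts in the snpc-4 library and 673 in the control library, a ratio of 2.21 (2.02 to 2.42), above every one of the 41. 3 members of that family with more reads lay near the microRNA total, with ratios of 1.02 (0.999 to 1.04) for let-7, 1.03 (1.02 to 1.03) for mir-48 and 0.988 (0.982 to 0.994) for mir-84. For mir-237, of the lin-4 family, the ratio was 0.681 (0.291 to 1.56), an interval that includes 1. The part of germline content or exact stage in the ratios of the 41 was not tested.

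The remaining members gave ratios between 0.754 and 1.18. mir-57, which acts in the fate of posterior cells, had 2018 counts in the snpc-4 library and 1887 in the control library, a ratio of 0.910 (0.854 to 0.970). mir-236, related to miR-200 of vertebrates, had 1558 counts in the snpc-4 library and 1404 in the control library, a ratio of 0.944 (0.878 to 1.02). mir-235, related to miR-92 and known from the dormancy of newly hatched larvae, had 1157 counts in the snpc-4 library and 947 in the control library, a ratio of 1.04 (0.953 to 1.13). Of these 3, the interval excluded 1 for mir-57 alone. mir-67, often used as a negative control in mammalian cells, had 312 counts in the snpc-4 library and 306 in the control library, a ratio of 0.868 (0.739 to 1.02). For mir-254, mir-784, mir-244, mir-259, mir-248, mir-234 and mir-1022, with 62 to 393 counts in the snpc-4 library and 65 to 378 in the control library, the interval of the ratio included 1. Their ratios ran from 0.754 (0.527 to 1.08) for mir-1022 to 1.18 (0.971 to 1.43) for mir-784.

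The members just inside the minimum were mir-252, mir-1022 and mir-234, with means of 64, 66 and 73.5 counts. Just outside it were mir-796, with 34 counts in the snpc-4 library and 54 in the control library, mir-232, with 41 in the snpc-4 library and 43 in the control library, and the lesser product of mir-56, with 39 in the snpc-4 library and 41 in the control library. mir-81, with a mean of 50, was left out as a member of the mir-58 family. Precursors of 2 of the 41 list a second product. It held 8.19% of the counts of mir-56 in the snpc-4 library (exact Clopper-Pearson interval 5.89% to 11.0%) and 10.3% in the control library (7.51% to 13.7%), and, at 1 count in the snpc-4 library and 7 in the control library, 0.0370% and 0.178% of those of mir-253.

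The log2 ratios of the 41 spanned -0.77 to 0.85, against -3.10 to 1.73 for the 347 other well-counted transcripts that are not microRNAs. The ratio showed no trend with abundance over the 41 (Spearman's rho of 0.0044 between mean count and log2 ratio, a description). Of the listed microRNAs, 38 of the 41 stand in the second of 2 runs of ascending position in which each chromosome's microRNAs are listed. In the first runs, 61 of 110 microRNA transcripts were at 0 in both libraries, against 12 of 93 in the second runs. The 3 members from first runs were mir-229, mir-228 and mir-72. A microRNA at 0 in these tables, such as lin-4, whose relative mir-237 had 12 counts in the snpc-4 library and 15 in the control library, is therefore given as a count of 0 and not as an absent RNA.

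**Figure D4:**
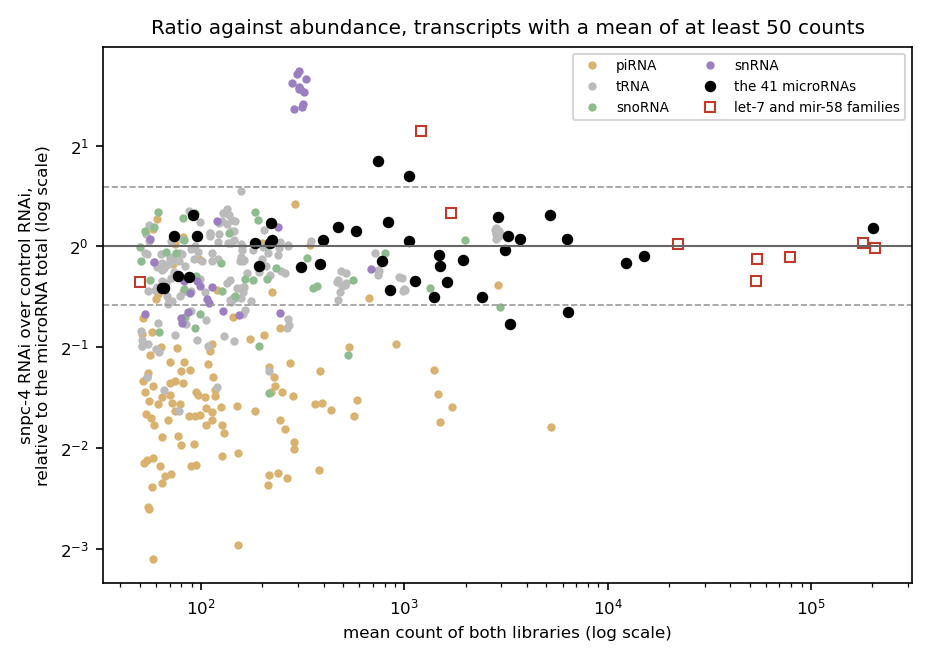
Ratio of snpc-4 RNAi over control RNAi relative to the microRNA total against the mean count of both libraries, both on log axes, for the 397 transcripts that reach a mean of 50 counts, with dashed lines at 1.5-fold. The 41 microRNAs (black) lie between 0.585 and 1.80 at all abundances, while piRNAs lie mostly lower, with a median ratio of 0.357 for 120 of them.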

How the data were processed

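Small RNA libraries of 22 to 30 nucleotide inserts were prepared with an Illumina kit for small RNA (v1.5), per the labels' protocols. BWA is named in the submitters' processing notes. No version, build, annotation or counting rule is given in these sources. The deposited tables hold whole-number counts and RPM per transcript, per the file headers. The deposited RPM values equal the count divided by 1 total per library, 20875010 reads for snpc-4 RNAi and 20413480 for control RNAi, of which the listed transcripts hold 1074622 and 956653.

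Genes were named through RefSeq's table for assembly WBcel235, by locus tag without the final letter, which matched all 203 microRNA transcripts. Ratios are plain ratios of counts over the summed microRNA counts, with no read added. Limits were a mean of 50 counts and 1.5-fold. Full values are given for the 10 most abundant members, the 6 highest and 6 lowest ratios, those on the lists and those next to the minimum. Members, lists and rules were chosen with earlier results of these data known. The interval step was tested on simulated data. The other 12 samples were not analysed here. Alternatives changed the scaling, the minimum, the reads added, the limit and the leading member. The software was SciPy 1.17.1, pandas 2.3.3 and NumPy 2.4.6 under Python 3.11.15, with matplotlib 3.10.9 for the plots.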

Additional observations from a re-analysis of the deposited data

How the results depend on the processing

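Of 76 alternative values, 43 stayed inside the interval around the value in the Results, or changed a count by at most 1.5 times, 25 moved beyond it with the same sign, and 8 changed sign. Relative to the microRNA total, log2 ratios shift by 0.20 with RPM, 0.065 with all listed counts, 0.055 with the microRNA total without mir-1 and 0.024 with the median ratio of well-counted microRNAs. The log2 ratio of the summed 41 microRNAs, 0.10, was 0.30, 0.16, 0.15 and 0.12 under these 4 scalings, and -0.11 without mir-1 among the members. Their median of -0.031 was 0.17, 0.034 and 0.024 under the first 3 scalings and 0.0016 with a minimum mean of 200 counts. The sum of the mir-51 family, -0.031, was 0.17, 0.034 and 0.024 under the same 3 scalings. The shifts under the 4 scalings follow from the scaling itself. Of the 8 sign changes, 6 came from a scaling, 1 from the higher minimum and 1 from leaving mir-1 out of the sum, which rests on that microRNA. The count of 2 microRNAs at least 1.5-fold higher was 0 with a limit of 2-fold and 11 with a minimum mean of 1 count, which takes in 97 transcripts. The count of 2 at least 1.5-fold lower was 0 by RPM, 0 with a limit of 2-fold, 7 with a limit of 1.3-fold and 21 with a minimum mean of 1 count. No paired analysis was possible because each group has 1 library, and no library could be left out for the same reason.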

Other observations

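The chromosomes were compared after the values had been seen. The 7 members on chromosome V summed to 11986 counts in the snpc-4 library and 15440 in the control library, a ratio of 0.661 (0.645 to 0.677) relative to the microRNA total. Of these, mir-253 and mir-250 held 8172 in the snpc-4 library and 11233 in the control library. 5 of the 7 had a ratio below 1, and mir-87 and mir-1821 had one above 1. The sums of the members on the other chromosomes had ratios between 0.918 on chromosome IV, led by mir-59, and 1.13 on chromosome X, led by mir-63.

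By abundance, the 19 members with means of at least 1000 counts other than mir-1, led by mir-71, had a median ratio of 0.934, of which 7 lay above 1. The 12 with means of 200 to under 1000 counts, led by mir-61, had a median ratio of 1.04, of which 8 lay above 1. The 9 below 200 counts had a median ratio of 0.874, of which 4 lay above 1.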
